A study of Mus musculus with 8 samples.

Results

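The mitochondrial ribosomal proteins are the nuclear-encoded proteins of the ribosome that works inside mitochondria. Their genes were taken as every protein-coding row of the deposited mouse gene table whose symbol starts with Mrpl or Mrps followed by a digit. This gave 78 of 45777 genes, 49 with Mrpl and 29 with Mrps symbols, and 5 rows with such symbols but annotated as pseudogenes were left out. RNA was sequenced from primary hepatic stellate cells, liver cells that store vitamin A and turn into matrix-producing myofibroblasts when activated. The cells came from male wild-type C57BL/6 mice. In 4 libraries (siPAK4) they had been transfected with a small interfering RNA against Pak4, a serine/threonine kinase of the p21-activated family. In the other 4 libraries (siControl) the same kind of cells had received a control siRNA. No group carried any other labelled allele or agent, and all 8 libraries bear the same batch label. The labels give no origin of the replicates (mice, isolations or dishes), so the spread behind every p-value is that between these samples and may be technical.

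Mitochondrial ribosomes translate only the mRNAs of mitochondrial DNA, all of which encode subunits of the respiratory chain and ATP synthase. Their RNA is transcribed from mitochondrial DNA, whereas every protein is made in the cytosol and imported. Some of these proteins descend from bacterial ribosomal proteins and others exist only in mitochondrial ribosomes. Both kinds are assembled with the ribosomal RNA by dedicated GTPases, helicases and RNA-modifying enzymes.

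Read counts summed to 55728583 to 59205049 in siPAK4 libraries and 57297561 to 61535063 in siControl libraries. Pak4 itself had a log2 fold change of -1.44 (adjusted p = 9.4e-06, SE 0.12), with no overlap between groups. The first principal component of the genes expressed highly enough to test (44.1% of variance) separated the groups. The second (13.4%) set siPAK4 replicate 3 apart from the other 7 libraries. Results that rest on that library are therefore also given without it. Of 12 stellate cell markers, 11 were expressed highly enough to test, with 1 higher and 3 lower in siPAK4. Their summed level was 521 to 639 CPM (counts scaled to library size) in siPAK4 and 493 to 569 CPM in siControl, with Dcn and Reln well expressed and Lrat averaging 0.216 CPM in siPAK4 and 0.027 CPM in siControl. Markers of other cells were present too. Macrophage and Kupffer cell markers summed to 5099 to 8265 CPM in siPAK4 and 9136 to 10592 CPM in siControl, and 8 of 11 tested were lower in siPAK4. Endothelial markers summed to 3786 to 5472 CPM in siPAK4 and 6200 to 6411 CPM in siControl, with 4 higher and 6 lower among 12. Cell-cycle genes summed to 456 to 593 CPM in siPAK4 and 805 to 912 CPM in siControl, and all 10 were lower. All 8 activated stellate cell markers were lower, at 601 to 818 CPM in siPAK4 and 1371 to 1847 CPM in siControl. Portal fibroblast and mesothelial markers summed to 111 to 128 CPM in siPAK4 and 193 to 220 CPM in siControl, and 5 of 8 tested were lower. Hepatocyte markers summed to 173 to 202 CPM in siPAK4 and 137 to 208 CPM in siControl, and 2 of the 5 that could be tested were higher. Cholangiocyte markers summed to 1024 to 1495 CPM in siPAK4 and 1127 to 1599 CPM in siControl. Lymphocyte markers summed to 0.778 to 1.21 CPM in siPAK4 and 0.722 to 1.04 CPM in siControl. None of 4 cholangiocyte and 2 lymphocyte markers tested passed. No marker of these lists was at 0 in all 8 libraries. The part of these markers in the results below was not tested, and in bulk RNA fewer cells of a type and less RNA per cell cannot be told apart.

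Most mitochondrial ribosomal protein genes moved little after Pak4 silencing, and those that passed the test were mostly slightly higher. Of 78 genes, 78 were tested. In edgeR's quasi-likelihood test, with Benjamini-Hochberg adjustment over the 17975 tested genes, 15 genes rose (19.2% of the 78, against 12.4% of all tested genes), 1 fell (1.28%, against 14.5%) and 62 did not pass 0.05. At an unadjusted p below 0.05 there were 30 of the 78 genes and 6837 of the 17975 tested genes, which are similar shares. Of the 30 genes 28 were higher, and the split by direction over all tested genes was not counted. The median log2 fold change, siPAK4 over siControl, was 0.11 over the 78 genes, with the middle 50% between 0.025 and 0.21. Over all tested genes the median was 0.0052, with the middle 50% between -0.20 and 0.19. A fold change above 1 was seen for 63 of the 78 genes and for 50.8% of all tested genes. The siPAK4 and siControl libraries did not overlap for 17 genes that were higher in siPAK4 (14.0% of all tested genes were so) and for 1 that was lower (14.8% of all tested genes).

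The changes were small. The 15 genes that rose had folds of 1.16 to 1.30. No gene of the 78 changed by 2-fold, as a small share of all tested genes did (1034 of 17975). The median standard error of a log2 fold change was 0.076, and the median coefficient of variation of CPM was 7.50% in siPAK4 and 6.87% in siControl. The lowest count of any of these genes in any library was 475. The number of genes that rose was 8 without siPAK4 replicate 2 (10.3% of the 78, against 8.76% of all tested genes in that fit). It was 10 (12.8%) without siControl replicate 1, against 10.7% of all tested genes, and also 10 without siControl replicate 2, against 8.83%. Without siPAK4 replicate 3 it was 11 (14.1%), against 13.7% of all tested genes. Without siPAK4 replicate 2, siPAK4 replicate 3 or siControl replicate 1 the share that rose was thus near that of all tested genes. Scaled by library totals alone in place of TMM, 36 rose and none fell, while 21.6% of all tested genes were then called higher and 10.3% lower.

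**Figure D1:**
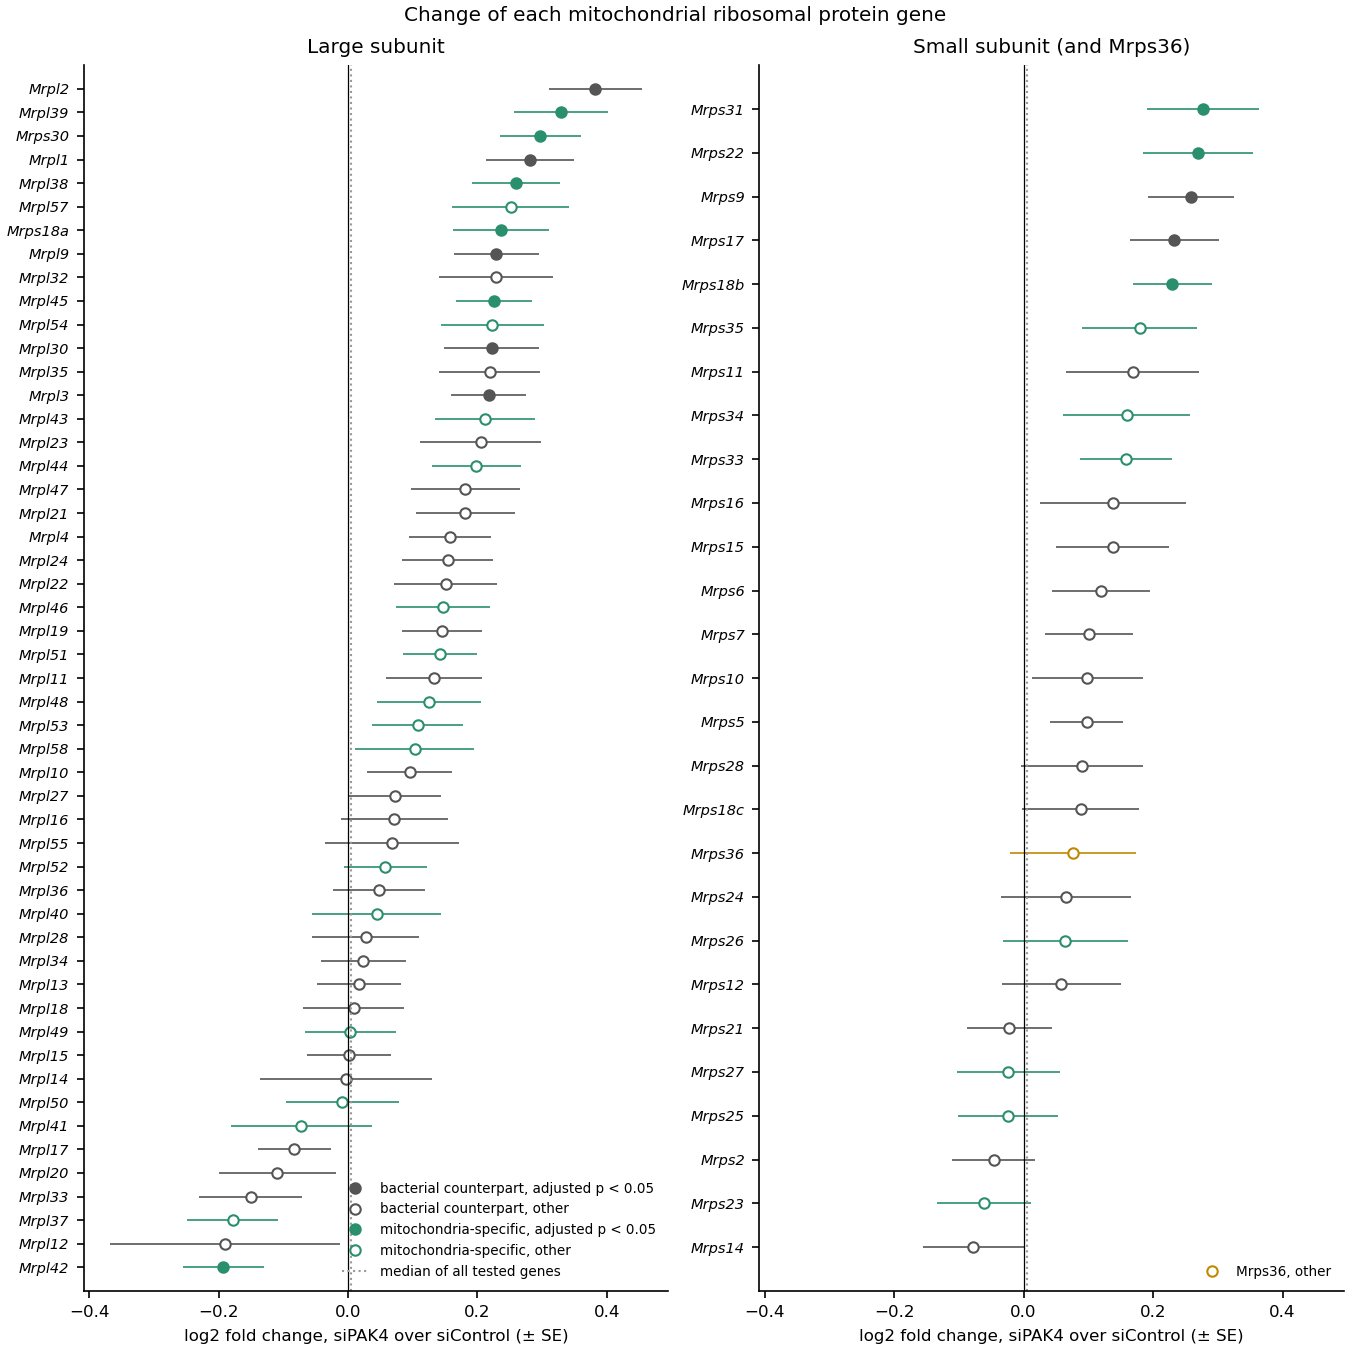
The log2 fold change (siPAK4 over siControl, horizontal axis) with its standard error is drawn for each of the 78 genes, by subunit and by evolutionary class, filled where the adjusted p is below 0.05. The 15 filled points on the right lie between 0.22 and 0.38, Mrpl42 is the 1 filled point on the left, and the dotted line marks the median of all tested genes.

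By the place of the protein, the counts per class are small and are given beside the 12.4% of all tested genes that rose and the 14.5% that fell. The large subunit has 51 of these genes, including Mrps30 and Mrps18a, whose proteins sit in the large subunit in spite of their symbols. Among them 10 rose and 1 fell, with a median log2 fold change of 0.13. Of the 26 genes of the small subunit, 5 rose and none fell by the test, with a median of 0.10. In the large subunit 5 of 30 bacterial counterparts rose (16.7%, median 0.11), as did 5 of 21 mitochondria-specific genes (23.8%, median 0.14). In the small subunit 2 of 16 bacterial counterparts rose (12.5%, near the background, median 0.10), as did 3 of 10 mitochondria-specific genes (median 0.16). Mrps18a and Mrps18b, both among the genes that rose, were classed here as mitochondria-specific. Mrps18c, with the same symbol stem, was classed as a bacterial counterpart, so the class of the first 2 is uncertain. No test of a difference between these classes was made. Mrps36, now placed in the 2-oxoglutarate dehydrogenase complex, was left out of both subunits and had 42.5 ± 3.41 TPM in siPAK4 and 39.4 ± 2.52 TPM in siControl (SD, n = 4 each), with a log2 fold change of 0.08 (adjusted p = 0.62).

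Mrpl2 (NCBI gene 27398, mm10 chr17:46646172-46650132) encodes a large subunit protein next to the peptidyl transferase centre and had the largest fold of the 78 genes. Its level was 40.0, 42.3, 42.1 and 37.0 CPM in siPAK4 replicates 1 to 4, against 28.1, 31.9, 30.3 and 33.6 CPM in siControl. Every siPAK4 library was above every siControl library. The log2 fold change was 0.38 (SE 0.07, adjusted p = 0.0023, 1.30-fold). In TPM, a unit scaled to gene length, Mrpl2 averaged 85.5 ± 8.35 in siPAK4 and 63.4 ± 3.56 in siControl (SD, n = 4 each).

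Mrps30 (NCBI gene 59054, chr13:118380110-118387252) encodes a mitochondria-specific protein of the large subunit. It had 23.3, 23.7, 23.4 and 22.5 CPM in siPAK4 and 19.0, 17.5, 19.8 and 19.2 CPM in siControl, again without overlap. The log2 fold change was 0.30 (SE 0.06, adjusted p = 0.0046). Mrpl39 (NCBI gene 27393, chr16:84718281-84735244), a mitochondria-specific protein related to threonyl-tRNA synthetase, had 42.9, 44.5, 52.8 and 45.6 CPM in siPAK4 and 37.5, 35.5, 39.1 and 35.7 CPM in siControl. The groups did not overlap, and siPAK4 replicate 3 was the highest library. The log2 fold change was 0.33 (SE 0.07, adjusted p = 0.0060). Mrpl1 (NCBI gene 94061, chr5:96209498-96266727), the protein of the mobile L1 stalk, had 29.3, 31.8, 33.9 and 30.4 CPM in siPAK4 and 24.5, 25.0, 28.0 and 25.7 CPM in siControl. All siPAK4 values were higher, with a log2 fold change of 0.28 (adjusted p = 0.010, SE 0.07).

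The promoters of these genes with the smallest adjusted p are shown so that the window searched for motifs can be read. Each runs from 250 bases before to 50 bases after a RefSeq transcription start (assembly GRCm38.p6) and is printed 5′ to 3′ on the gene's strand. Capitals mark a motif match, the E-box CACGTG in Mrpl2 and the NRF1 motif in Mrpl39. RefSeq lists 3 starts for Mrpl2, and the first is shown. The window of Mrpl1 lies wholly within the gene coordinates given above, past their first base.

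Mrpl2 promoter, chr17:46645971-46646270, plus strand: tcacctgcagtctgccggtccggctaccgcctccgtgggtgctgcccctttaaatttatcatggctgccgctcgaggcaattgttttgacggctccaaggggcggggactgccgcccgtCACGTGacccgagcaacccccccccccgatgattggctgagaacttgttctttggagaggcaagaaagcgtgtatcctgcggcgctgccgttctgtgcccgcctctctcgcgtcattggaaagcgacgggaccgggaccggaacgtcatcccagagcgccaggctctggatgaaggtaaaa

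Mrps30 promoter, chr13:118387203-118387502, minus strand: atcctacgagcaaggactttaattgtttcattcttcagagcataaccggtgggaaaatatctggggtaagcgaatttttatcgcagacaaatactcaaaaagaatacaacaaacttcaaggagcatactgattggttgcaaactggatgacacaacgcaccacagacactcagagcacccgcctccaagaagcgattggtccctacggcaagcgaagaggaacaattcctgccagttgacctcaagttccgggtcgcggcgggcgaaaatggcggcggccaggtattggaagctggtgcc

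Mrpl39 promoter, chr16:84735195-84735494, minus strand: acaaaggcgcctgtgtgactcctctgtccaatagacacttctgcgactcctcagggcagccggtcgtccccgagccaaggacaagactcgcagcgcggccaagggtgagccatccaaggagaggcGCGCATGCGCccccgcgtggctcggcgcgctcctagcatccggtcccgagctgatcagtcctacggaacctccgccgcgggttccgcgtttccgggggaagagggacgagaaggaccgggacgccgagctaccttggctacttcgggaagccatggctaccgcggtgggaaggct

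Mrpl1 promoter, chr5:96209865-96210164, plus strand: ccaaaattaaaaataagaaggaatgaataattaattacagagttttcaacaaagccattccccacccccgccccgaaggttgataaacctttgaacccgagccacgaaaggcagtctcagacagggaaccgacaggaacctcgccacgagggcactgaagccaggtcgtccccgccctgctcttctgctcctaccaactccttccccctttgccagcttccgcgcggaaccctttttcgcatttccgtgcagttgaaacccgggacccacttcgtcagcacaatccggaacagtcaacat

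Motifs of 4 factors or families linked to mitochondrial and housekeeping genes were searched in such windows on both strands, as exact letters. A window was found for 69 of the 78 genes and for 12908 tested genes. CCGGAAG, the core of ETS factors such as GABP, was in 26 of the 69 genes (37.7%), against 17.3% of tested genes. The NRF1 motif, in the letters capitalised in Mrpl39, was in 3 (4.35%), against 1.98%. The YY1 motif was in 5 (7.25%), also against 1.98%. The E-box CACGTG was in 5 (7.25%), against 10.9%. Of the 14 genes with a window among those that rose, 4 held the ETS core, 2 the NRF1 motif, 1 the YY1 motif and 1 the E-box. These are letter matches in a fixed window and were not tested. The last letters of the ETS core (AAG) can be the first letters of the YY1 motif, so those matches can overlap.

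The next genes by adjusted p were Mrps9, Mrpl38 and Mrpl45. Mrps9 (NCBI gene 69527, chr1:42851233-42905683), a small subunit protein whose bacterial counterpart reaches the transfer RNA in the P site, had 36.7, 34.8, 36.5 and 38.5 CPM in siPAK4 and 28.0, 29.7, 32.2 and 32.6 CPM in siControl. The log2 fold change was 0.26 (SE 0.07, adjusted p = 0.013) with no overlap. Mrpl38, a mitochondria-specific large subunit protein, had 28.2, 28.7, 26.8 and 27.1 CPM in siPAK4 and 23.3, 22.0, 21.7 and 25.6 CPM in siControl. These groups also did not overlap, and the log2 fold change was 0.26 (adjusted p = 0.014). Mrpl45, a mitochondria-specific protein near the exit of the peptide tunnel at the inner membrane, had 52.8, 57.8, 59.4 and 52.4 CPM in siPAK4 and 47.7, 46.8, 47.1 and 48.7 CPM in siControl. Its siControl libraries lay close together and below every siPAK4 library (log2 fold change 0.22, adjusted p = 0.015).

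**Figure D2:**
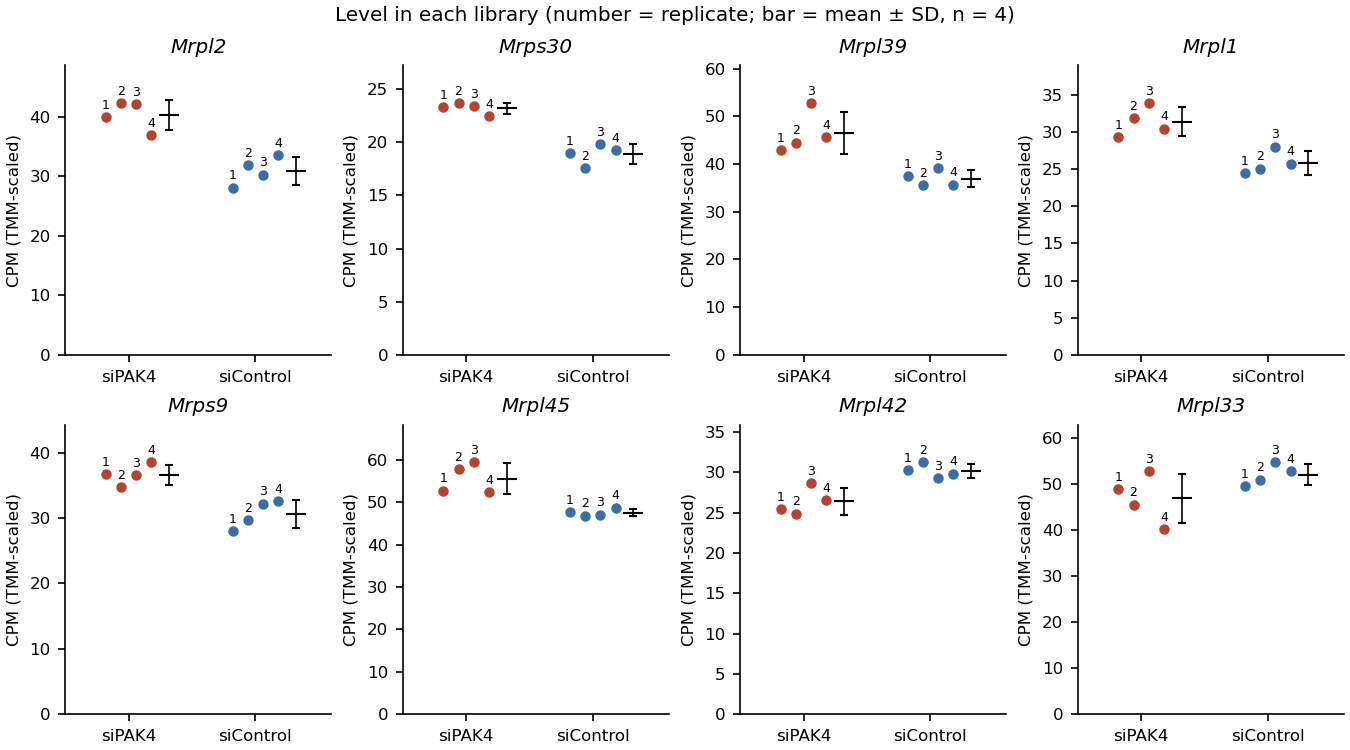
CPM in each library (vertical axes, from 0) of 8 genes, with siPAK4 left of siControl, the replicate number at each point and the mean ± SD beside it. Mrpl2, Mrps30, Mrpl39, Mrpl1, Mrps9 and Mrpl45 are higher in every siPAK4 library, Mrpl42 is lower in every siPAK4 library, and the groups of Mrpl33 overlap.

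Mrpl3, another large subunit protein near the peptidyl transferase centre, and Mrps17, a counterpart of bacterial S17, rose without overlap. Mrpl3 had 41.5 to 47.1 CPM in siPAK4 and 37.2 to 38.8 CPM in siControl (0.22 on the log2 scale, adjusted p = 0.016). Mrps17 had 36.2 to 40.2 CPM in siPAK4 and 29.2 to 35.2 CPM in siControl (0.23 on the log2 scale, adjusted p = 0.025). Mrps18b, a small subunit protein classed here as mitochondria-specific, rose by a log2 fold change of 0.23 (adjusted p = 0.016). It had 31.8 to 34.4 CPM in siPAK4 and 25.9 to 29.3 CPM in siControl. Its value is uncertain, since 30.2% of its 50-base stretches, read on either strand, also occur in other annotated genes, mostly Gm16279. Mrpl9, Mrps31 and Mrps18a passed with overlapping groups. Their log2 fold changes were 0.23 for Mrpl9 (adjusted p = 0.022), 0.28 for Mrps31 (adjusted p = 0.033) and 0.24 for Mrps18a (adjusted p = 0.034). The overlap for Mrps31 came from siControl replicate 3, which had 18.1 CPM, against 14.6 to 14.9 CPM in the other siControl libraries and 18.0 to 20.5 CPM in siPAK4. Mrps22 and Mrpl30, named after their values were seen to complete the 15, also overlapped, with log2 fold changes of 0.27 (adjusted p = 0.036) for Mrps22 and 0.22 (adjusted p = 0.042) for Mrpl30.

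Several calls depended on single libraries. Mrpl2, Mrps30, Mrpl39, Mrpl1, Mrps9, Mrpl3 and Mrps18b were called in the same direction in all 18 alternative fits. Leaving out siPAK4 replicate 2 cost Mrpl9, Mrpl30, Mrpl45, Mrps17, Mrps18a, Mrps22 and Mrps31 their call. Leaving out siControl replicate 2 did so for Mrpl9, Mrpl30, Mrpl38, Mrps17, Mrps18a, Mrps22 and Mrps31, and leaving out siControl replicate 1 for Mrpl9, Mrpl30, Mrps17, Mrps22 and Mrps31. Mrpl30, Mrps18a, Mrps22 and Mrps31 also lost it without siPAK4 replicate 3, Mrps18a without siPAK4 replicate 1, and Mrpl9 and Mrpl30 without siPAK4 replicate 4. The same held for Mrpl9, Mrps18a and Mrps22 without siControl replicate 3, and for Mrpl30, Mrps17 and Mrps31 without siControl replicate 4. The direction of all 16 called genes was the same in every one of these fits. These fits reuse the libraries of the main fit, which chose the genes, so the shared direction is no separate support.

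Mrpl42 (NCBI gene 67270, chr10:95480805-95501949), a mitochondria-specific large subunit protein, was the only one of the 78 to fall. Its level was 25.5, 24.9, 28.6 and 26.6 CPM in siPAK4 and 30.3, 31.2, 29.3 and 29.8 CPM in siControl. All siPAK4 libraries were below all siControl libraries, and siPAK4 replicate 3 was the closest. The log2 fold change was -0.19 (SE 0.06, adjusted p = 0.041). Without siPAK4 replicate 3 it was -0.24 (adjusted p = 0.0098), whereas it missed the threshold when any one of the other 7 libraries was left out, with log2 fold changes of -0.21 to -0.17 and adjusted p of 0.061 to 0.13. Mrpl44, whose protein has an RNase III-like fold, and Mrpl35, a counterpart of bacterial L35, were closest to the threshold without passing. Mrpl44 had 23.6 to 28.0 CPM in siPAK4 and 21.7 to 23.0 CPM in siControl, without overlap (log2 fold change 0.20, adjusted p = 0.052). Mrpl35 had a log2 fold change of 0.22 (adjusted p = 0.057). Both passed without siPAK4 replicate 4, and also with library totals, DESeq2, FPKM or a filter at a mean of 1 CPM. Mrpl44 also passed with TPM and with length and GC content corrected.

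Levels per gene length spanned 20.9-fold among the 78 genes, with a median of 42.6 TPM. The most abundant were Mrpl33, Mrps21 and Mrpl13, and none of them passed the test. Mrpl33, a counterpart of bacterial L33, averaged 221 ± 26.4 TPM in siPAK4 and 239 ± 9.10 TPM in siControl (log2 fold change -0.15, adjusted p = 0.19). Mrps21 averaged 184 ± 11.2 TPM in siPAK4 and 182 ± 5.86 TPM in siControl, and Mrpl13 119 ± 4.80 TPM in siPAK4 and 115 ± 5.64 TPM in siControl (SD, n = 4 each). The difference was within the spread of the libraries for both, with adjusted p of 0.85 for Mrps21 and 0.88 for Mrpl13. Least abundant were Mrpl17, Mrps25 and Mrpl19, which also did not pass. Mrpl17, a protein near the tunnel exit, averaged 10.9 ± 0.973 TPM in siPAK4 and 11.2 ± 0.283 TPM in siControl (adjusted p = 0.31). Mrps25 averaged 12.3 ± 1.10 TPM in siPAK4 and 12.2 ± 0.793 TPM in siControl (adjusted p = 0.86), and Mrpl19 14.8 ± 0.648 TPM in siPAK4 and 13.0 ± 0.533 TPM in siControl (adjusted p = 0.11). Mrps25 and Mrpl19 share 68.2% and 37.0% of their 50-base stretches with other annotated genes, so their levels are uncertain. In all, 7 of the 78 genes share over 25% of such stretches.

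Abundant and less abundant genes were both among those that rose. Spearman's rho between mean TPM and log2 fold change was -0.0033 across the 78 genes, which share the same 8 libraries and are not independent replicates. Of the 39 genes with the higher levels 10 rose, and of the 39 with the lower levels 5 rose, against 12.4% of all tested genes. The share among the 39 with the lower levels was thus near that of all tested genes. The genes lie on 17 chromosomes. The longest annotated transcript of each gene was short, with a median of 1867 bases against 3372 bases for tested genes with a value. Median GC content of these longest transcripts was 49.8% against 49.7%. With length and GC content corrected in the fit, 19 rose and 1 fell, while 17.8% of all tested genes were called higher.

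The spread among siPAK4 libraries was uneven over the whole family. Measured as the median over the 78 genes of log2 CPM minus the siControl mean, siPAK4 replicate 3 stood at 0.25, and siPAK4 replicates 1, 2 and 4 at 0.077, 0.073 and 0.071. The siControl libraries stood at -0.073, 0.0019, 0.023 and 0.057, so siControl replicate 4 was close to 3 of the siPAK4 libraries. In siPAK4 replicate 3, 62 of the 78 genes (79.5%) were above every siControl library, against 33.8% of all tested genes. In siPAK4 replicates 1, 2 and 4 there were 31 (39.7%), 34 (43.6%) and 29 (37.2%) such genes, against 31.9%, 31.3% and 30.7% of all tested genes. Over all tested genes the same medians lay between -0.0087 and 0.014. That library also had the highest macrophage marker sum of the siPAK4 group, 8265 CPM, and the lowest endothelial marker sum, 3786 CPM; their part in the result was not tested. Without siPAK4 replicate 3 the median log2 fold change of the 78 genes was 0.071, and 11 rose and 2 fell, against 13.7% of all tested genes higher and 16.5% lower. The second to fall was Mrpl33 (log2 fold change -0.21, adjusted p = 0.033), which without siPAK4 replicate 4 had -0.083 (adjusted p = 0.44).

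**Figure D3:**
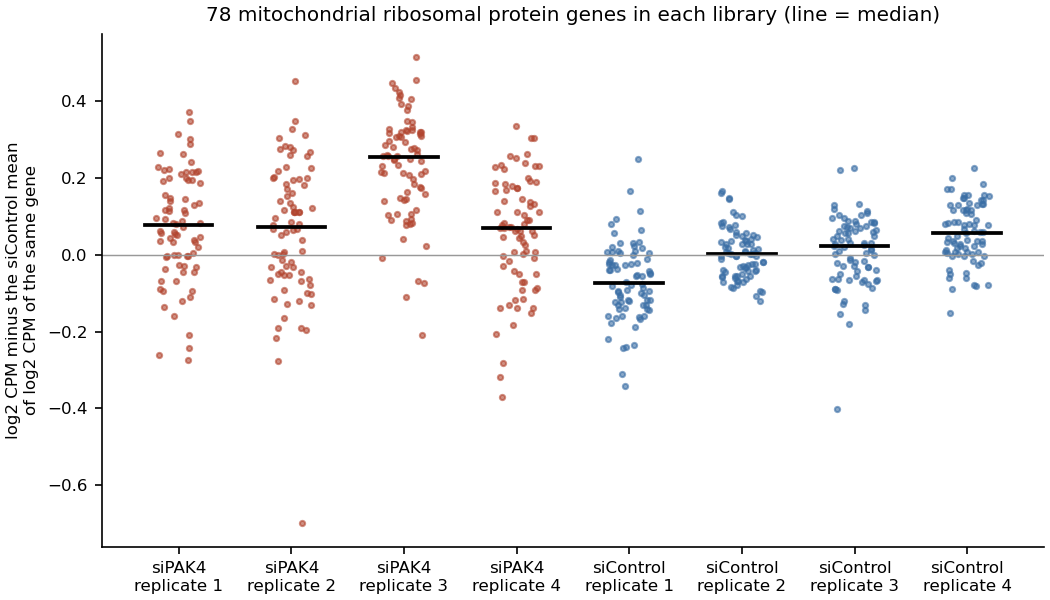
Each point is 1 of the 78 genes in 1 library, as log2 CPM minus the siControl mean of the same gene (vertical axis), and black lines are medians. The siPAK4 libraries are on the left, with replicate 3 at a median of 0.25 and the others at 0.071 to 0.077, and the siControl medians run from -0.073 to 0.057.

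Summed over the 78 genes, the siPAK4 libraries had 2151, 2148, 2393 and 2119 CPM, against 1954, 2042, 2064 and 2134 CPM in siControl. The sums overlapped, since siPAK4 replicate 4 was below siControl replicate 4. Means were 2203 ± 128 CPM in siPAK4 and 2049 ± 73.9 CPM in siControl (SD, n = 4 each). The 78 genes took 0.215% to 0.243% of all counts in siPAK4 and 0.189% to 0.209% in siControl. The sum of deposited TPM was 4455, 4427, 4412 and 3992 in siPAK4 and 3864, 3966, 4009 and 3980 in siControl. TPM adds to a fixed total, of which the cytosolic small RNAs Rn7s1 and Rn7s2 took 3.69% to 8.63% in siPAK4 and 2.85% to 4.96% in siControl, with the highest share in siPAK4 replicate 4.

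Genes that work with these proteins were read from lists of the same pathway, whose counts stand against 12.4% of all tested genes higher and 14.5% lower. Of 5 mitoribosome proteins with other symbols, 2 rose and none fell (median log2 fold change 0.061). Gadd45gip1, a large subunit protein, had 25.8 to 27.8 CPM in siPAK4 and 18.8 to 24.2 CPM in siControl (0.31 on the log2 scale, adjusted p = 0.012). Dap3, a GTP-binding protein of the small subunit, had 54.1 to 55.1 CPM in siPAK4 and 46.9 to 49.5 CPM in siControl (0.17 on the log2 scale, adjusted p = 0.027). With the deposited TPM values Dap3 had a log2 fold change of -0.10, and with FPKM of -0.050, so its direction depends on the unit. Its call was also lost without siPAK4 replicate 1, 2 or 4 and without siControl replicate 1, 2 or 4.

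Among 25 assembly and rRNA modification genes 9 rose (36.0%) and none fell, with a median of 0.16. Mrm3, a methyltransferase of the large ribosomal RNA, had 8.42 to 9.01 CPM in siPAK4 and 6.38 to 7.34 CPM in siControl (0.34 on the log2 scale, adjusted p = 0.012). Trub2 and Ngrn, proteins of the pseudouridine synthase module, had log2 fold changes of 0.27 (adjusted p = 0.012) and 0.28 (adjusted p = 0.019), and the RNA helicase Ddx28 0.26 (adjusted p = 0.019). Ngrn lost its call without siControl replicate 1 or 3, and Ddx28 without siPAK4 replicate 2 or siControl replicate 1. Of 15 translation factors 2 rose (13.3%, near the background) and none fell, with a median of 0.069. These were Oxa1l, which inserts new proteins into the inner membrane (log2 fold change 0.24, adjusted p = 0.014), and the ribosome recycling factor Gfm2 (0.17, adjusted p = 0.044). Gfm2 kept its call only without siPAK4 replicate 4 among the fits with 1 library left out.

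Of 17 mitochondrial aminoacyl-tRNA synthetases 4 rose (23.5%) and 1 fell (5.88%), with a median of 0.15. Yars2, for tyrosine, had the smallest adjusted p among those that rose (log2 fold change 0.38, adjusted p = 0.0027), followed by Iars2 for isoleucine (0.20, adjusted p = 0.012) and Wars2 for tryptophan (0.24, adjusted p = 0.023). Wars2 lost its call without siPAK4 replicate 1 or 2 and without siControl replicate 3 or 4. Lars2, the enzyme for leucine, had 13.3, 11.0, 9.05 and 11.3 CPM in siPAK4 and 22.0, 26.9, 22.2 and 14.2 CPM in siControl. Lars2 fell with no overlap, although siControl replicate 4 was close to the siPAK4 libraries (log2 fold change -0.93, SE 0.17, adjusted p = 0.0023).

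Of 11 genes of mitochondrial DNA transcription and upkeep 2 rose (18.2%) and none fell, with a median of 0.19. Twnk, the replicative helicase, had 16.5 to 18.7 CPM in siPAK4 and 12.8 to 14.3 CPM in siControl (0.36 on the log2 scale, adjusted p = 0.0034). The transcription termination factor gene Mterf1b had a log2 fold change of 0.43 (adjusted p = 0.033), a call lost without siPAK4 replicate 1 or 2 and without siControl replicate 1, 2 or 4. Mrpl43 was named after its values were seen, because 30.3% of its 50-base stretches, read on either strand, also occur in Twnk. Mrpl43 had a log2 fold change of 0.21 (adjusted p = 0.063). Among 11 nuclear regulators only Ppargc1a, a coactivator of mitochondrial biogenesis, passed the test (9.09%). It was weakly expressed, at 0.795, 0.936, 1.26 and 0.869 CPM in siPAK4 and 0.686, 0.465, 0.204 and 0.407 CPM in siControl (1.14 on the log2 scale, SE 0.32, adjusted p = 0.021), and lost its call without siControl replicate 2 or 4.

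**Figure D4:**
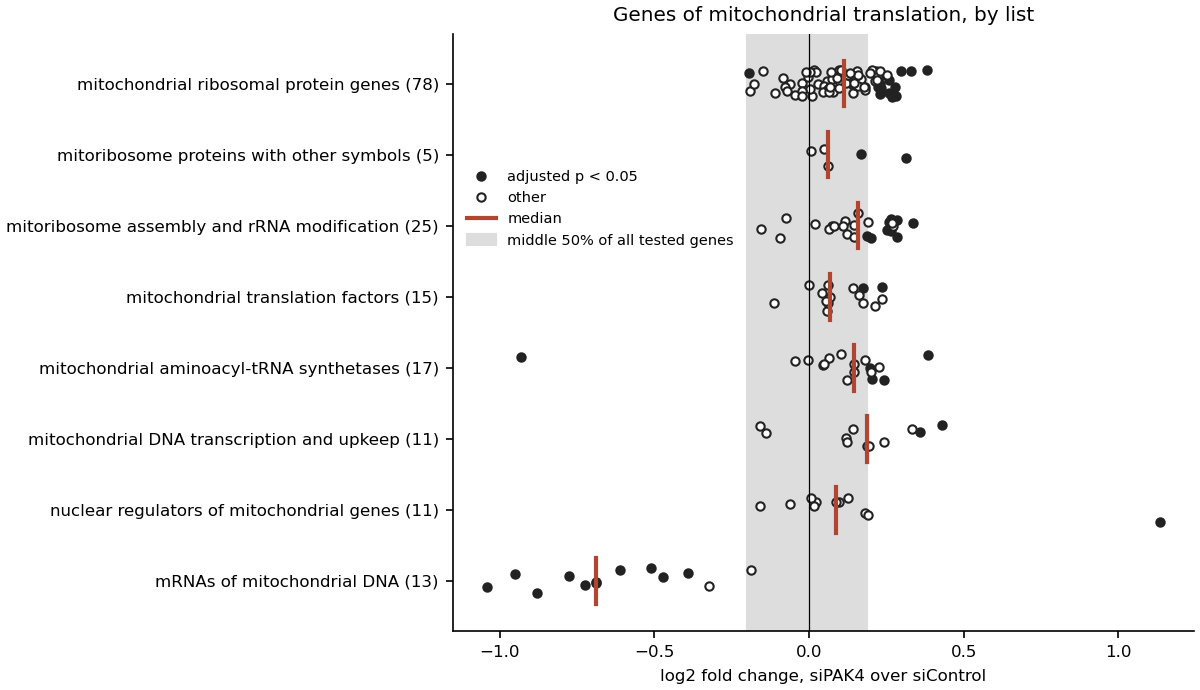
Each point is the log2 fold change of 1 gene (siPAK4 over siControl, horizontal axis) by list, filled where the adjusted p is below 0.05, with the median of each list as a red line and the middle 50% of all tested genes shaded. The medians of the nuclear lists lie between 0.061 and 0.19, and that of the 13 mRNAs of mitochondrial DNA is at -0.69.

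The mRNAs that mitochondrial ribosomes translate were lower. Of 13 mRNAs of mitochondrial DNA 11 fell (84.6%) and none rose, with a median log2 fold change of -0.69, and 9 had no overlap between groups. COX2 (cytochrome c oxidase subunit 2) had 424, 394, 460 and 456 CPM in siPAK4 and 662, 588, 596 and 560 CPM in siControl (-0.47 on the log2 scale, adjusted p = 0.00051). The NADH dehydrogenase subunits ND6, ND1 and ND4L had log2 fold changes of -0.95 (adjusted p = 0.00044), -0.61 (adjusted p = 0.0013) and -1.04 (adjusted p = 0.0027). ND4L missed the threshold once length and GC content were corrected. COX1 and ND3 did not pass, with -0.19 (adjusted p = 0.079) and -0.33 (adjusted p = 0.11). Summed, the 13 mRNAs had 9276 to 10852 CPM in siPAK4 and 11304 to 12488 CPM in siControl.

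The ribosomal RNAs of the same particle were looked up after other values had been seen. The large one, mt-Rnr2, had 7978, 5593, 6799 and 6676 CPM in siPAK4 and 14399, 9429, 8478 and 8301 CPM in siControl (-0.59 on the log2 scale, adjusted p = 0.025). The groups did not overlap, and siControl replicate 1 was far above the other siControl libraries. The small one, mt-Rnr1, had 823, 485, 554 and 610 CPM in siPAK4 and 1758, 1067, 795 and 752 CPM in siControl, with overlap (log2 fold change -0.82, adjusted p = 0.052). Without siControl replicate 1 the log2 fold change of mt-Rnr2 was -0.37 (adjusted p = 0.038), and the call was lost without siPAK4 replicate 2, 3 or 4. The small ribosomal RNA had -0.50 (adjusted p = 0.063) without siControl replicate 1, and passed the threshold without siPAK4 replicate 1, siControl replicate 3 or siControl replicate 4. It also passed without robust estimation (adjusted p = 0.029) and with a filter at a mean of 1 CPM (adjusted p = 0.033). The library kit selects polyadenylated RNA, and how much ribosomal RNA it carried over was not measured.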

How the data were processed

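PolyA-selected RNA of 8 libraries, 4 siPAK4 and 4 siControl, was measured with the TruSeq Stranded mRNA kit, per the labels' protocols. The authors deposited whole-number read counts per gene, with no normalization, and, per the file headers, FPKM values scaled to depth and gene length and TPM values scaled to a fixed total per library. The submitters' processing notes name genome build mm10, HISAT2 2.1.0 and Bowtie2 2.3.4.1, StringTie 2.1.3b, bcl2fastq 2.20.0 and FastQC 0.11.7, with no roles or order. How reads were counted, with which strand setting and with what handling of reads that match several genes is not given in the sources used here.

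Genes were kept by filterByExpr (minimum count 10), scaled by TMM and tested with edgeR 4.0.16 in R 4.3.3 (quasi-likelihood, robust, Benjamini-Hochberg over 17975 genes, threshold 0.05). CPM uses TMM-scaled library sizes. DESeq2 1.42.0, limma 3.58.1 on log2 TPM (pseudocounts 1 and 0.1) or log2 FPKM (pseudocount 1), and other scalings and filters were alternatives. A replicate block and the omission of each library were also used. Correction for GC content and length, taken from the longest annotated transcript of each gene, was added after the data were seen. Shared 50-base stretches were counted over GENCODE vM21 transcripts of the same build, on either strand. They can thus include overlap with a gene on the opposite strand, which stranded reads may tell apart. Coordinates are from RefSeq's GRCm38.p6 table.

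The genes and lists were chosen with earlier results of these data known. Named were the 12 called genes of each direction with the smallest adjusted p, the 3 most and 3 least abundant, the 2 nearest to the threshold without passing, Mrps18a, Mrps30 and Mrps36, and up to 4 called genes of each pathway list. Promoters are those of the 4 called genes with the smallest adjusted p. No 2 libraries of a group agreed within sampling noise.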

Additional observations from a re-analysis of the deposited data

Results flagged for a closer look

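In 3 of 98 groups of 4 libraries checked, 1 library lay far from the other 3 by Dixon's critical value (chance flags about 5% of such groups). The groups checked did not cover all 78 genes. Over the 78 genes, siPAK4 replicate 3 had a summed level of 2393 CPM, against 2119 to 2151 CPM in the other siPAK4 libraries. Mrps31 had 18.1 CPM in siControl replicate 3, against 14.6 to 14.9 CPM in the other siControl libraries. Mrpl19 had 28.8 CPM in siControl replicate 3, against 31.0 to 31.4 CPM in the other siControl libraries. Genes outside the check also had a library set apart. In siPAK4 replicate 3, Mrps35 had 16.9 CPM and Mrpl50 31.8 CPM, against 13.3 to 13.4 CPM and 24.6 to 25.6 CPM in the other siPAK4 libraries. In siControl replicate 1, Mrps5 had 23.0 CPM and Mrps26 15.5 CPM, against 23.9 CPM and 16.9 to 17.0 CPM in the other siControl libraries.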

How the results depend on the processing

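The median log2 fold change of the 78 genes stayed above 0 in every alternative fit, from 0.071 without siPAK4 replicate 3 to 0.20 with library totals, where the median of all tested genes was 0.094. The number of genes that rose was 36 with library totals and 38 with FPKM, where 25.8% of all tested genes were called higher. With 1 library left out it ran from 8 to 16, and the number that fell from 0 to 2; without siControl replicate 3 the 1 gene that fell was Mrpl37, not Mrpl42. With DESeq2 20 rose and 1 fell, against 13.3% and 14.9% of all genes with an adjusted p. None fell (0 genes) with library totals, without the filter, with TPM at either pseudocount, with FPKM or with the replicate block. Over all tested genes, 3877 were higher with library totals, and 1583 (TPM, pseudocount 1), 1559 (TPM, pseudocount 0.1) and 1340 (FPKM) were lower. Some genes that had not passed the test changed sign, in most cases close to 0. Mrps21 reached 0.066 (library totals), 0.016 (TPM at either pseudocount), 0.070 (FPKM) and 0.11 (GC and length), and Mrps25 reached 0.063, 0.013, 0.014, 0.058 and 0.037 under the same alternatives (TPM at pseudocount 1, then 0.1). Mrpl17 reached 0.0061 (library totals) and 0.0094 (FPKM). With 1 library left out, Mrps21 ran from -0.068 to 0.0054, Mrps25 from -0.071 to 0.019, Mrpl13 from -0.030 to 0.053 and Mrps36 from -0.022 to 0.13. Dap3, which had passed, had -0.10 (TPM, pseudocount 1), -0.050 (FPKM) and -0.11 (TPM, pseudocount 0.1). Mrpl30, Gfm2 and Mterf1b lost their call without the filter and with TPM, Mrpl30, Wars2 and mt-Rnr2 with FPKM, Wars2 and mt-Rnr2 with TPM, and Mterf1b and ND4L with GC and length corrected. The cause was not tested.

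Deviations of same-numbered libraries from their group means had correlations of 0.035, -0.047, 0.10 and -0.037, so the numbers were not taken as pairs, and not every library correlated best with its own number. With the replicate block 13 genes rose (16.7%) and 0 fell, against 11.4% and 14.1% of all tested genes; Mrps18a, Mrps22, Dap3 and Gfm2 missed the threshold (adjusted p of 0.067, 0.051, 0.057 and 0.072), and mt-Rnr1 passed it (0.0045).

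With 4 libraries a group, the median standard error of a log2 fold change was 0.076, and a gene that did not pass is not shown to be the same in both groups. Counts do not tell whether the cells or their mitochondria differed in number, and 7 genes share sequence that the counting may have split.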
